A study of Mus musculus with 6 samples.

Results

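The 37 genes described here encode heat shock chaperones, their co-chaperones and the heat shock factors that control them. They were chosen by gene symbol, and all 37 were found among the 25075 symbols of the deposited count table. The choice was made with their difference between the genotypes in view, so the fold changes of these genes are given as a description, and no test of the difference is read from them. The genes were sorted by class and by whether textbook knowledge calls them heat-inducible (20 genes) or constitutive (17 genes).

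Chaperones bind unfolded stretches of other proteins and help them fold. HSP70 proteins do this in cycles of ATP hydrolysis that HSP40 proteins start and nucleotide exchange factors end, and HSP90 takes over many kinases and receptors at a later step. The transcription factor HSF1 is held inactive by chaperones in unstressed cells and, when unfolded protein draws them away, binds heat shock elements in the promoters of the inducible chaperone genes. These elements are runs of the unit nGAAn in alternating orientation. In lymphocytes sorted from solid tissue, inducible HSP70 and DNAJB1 transcripts are known to respond to enzymatic digestion and handling as well as to stress in the animal.

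The libraries were made from group 3 innate lymphoid cells (ILC3s), tissue lymphocytes known for IL-22 and IL-17 production at mucosal barriers. The cells came from the small intestine of mice of the b6 background and were sorted as Lin-CD90.2+KLRG1-. Each of 6 samples held 2000 cells and was sequenced by Smart-seq2, which copies whole transcripts from little RNA. The 3 libraries labelled Batffl/flPLZF-Cre+ come from mice in which Cre, driven by the locus of the innate lymphoid precursor factor PLZF, is meant to delete the floxed gene of the AP-1 factor BATF. The 3 libraries labelled Batffl/flPLZF-Cre- come from mice that carry the same floxed alleles and no Cre. Age and sex are not stated in the labels. The 2 groups are called the libraries labelled Cre+ and Cre-.

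Total counts ran from 8228513 to 13615895 in the libraries labelled Cre+ and from 9080012 to 17334207 in those labelled Cre-. Whether the targeted gene went with the labels depended on the scaling. Batf averaged 40.3 ± 1.77 CPM (counts relative to library size, scaled by TMM factors, which equalise the bulk of the genes) in the libraries labelled Cre+ and 16.5 ± 2.13 CPM in those labelled Cre- (SD, n = 3 each, log2 fold change 1.29, SE 0.16, edgeR adjusted p = 1.70e-05), against the labels. Batf turned to a log2 fold change of -0.87 (edgeR adjusted p = 4.22e-04) when libraries were scaled instead on 20 lymphocyte genes. Under that scaling the median of all genes was -2.14 and 83.2% of them passed as lower. Its negative sign there is therefore not read as loss of Batf. All 12 ILC3 markers were detected in every library, and together they took 1.12% to 1.19% of counts in the libraries labelled Cre+ and 0.220% to 0.247% in those labelled Cre-. RNA of other tissue differed at the same time. Pancreatic acinar genes took 0.000143% to 0.000267% of counts in the libraries labelled Cre+ and 9.58% to 9.97% in those labelled Cre-, and epithelial genes took 0.10% to 0.116% and 1.90% to 2.12%. Plasma cell genes took 0.130% to 0.143% of counts in the libraries labelled Cre+ and 1.45% to 1.47% in those labelled Cre-, and macrophage and dendritic cell genes 0.00623% to 0.00726% and 0.108% to 0.120%. T cell genes differed in the same direction as most members: 8 of 10 passed as higher and 1 as lower, against 30.2% and 34.1% of all genes tested. They took 0.184% to 0.198% of counts in the libraries labelled Cre+ and 0.0356% to 0.0380% in those labelled Cre-. The part of RNA of all these other cells in the differences below was not tested. In bulk samples, fewer cells of a type and less RNA per cell cannot be told apart.

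The promoters of the members were searched for the letters that heat shock factors are known to bind, and the stretches below are shown because they differ in the number of such units and in how far the gene differed between groups. RefSeq promoter windows of GRCm38.p6, from 250 bases before to 50 bases after a transcript's start, were matched for 29 of the 37 members. Each stretch reads 5′ to 3′ on the gene's strand, and capitals mark every match to GAANNTTC or TTCNNGAA, 2 adjoining units in either order, including overlapping matches.
Hspa1a: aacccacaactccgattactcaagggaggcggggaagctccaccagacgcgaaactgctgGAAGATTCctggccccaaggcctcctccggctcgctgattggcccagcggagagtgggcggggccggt
Hspa1b: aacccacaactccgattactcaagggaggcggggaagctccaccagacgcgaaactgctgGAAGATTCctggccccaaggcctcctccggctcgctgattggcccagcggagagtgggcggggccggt
Dnaja4: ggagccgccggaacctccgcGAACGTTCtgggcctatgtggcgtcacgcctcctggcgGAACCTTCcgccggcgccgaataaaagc
Hspb1: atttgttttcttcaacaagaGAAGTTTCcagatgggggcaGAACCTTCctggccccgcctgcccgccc
Hspe1: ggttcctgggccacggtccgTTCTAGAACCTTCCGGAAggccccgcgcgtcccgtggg
Chordc1: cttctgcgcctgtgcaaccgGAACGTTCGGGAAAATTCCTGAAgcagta
Dnajb6: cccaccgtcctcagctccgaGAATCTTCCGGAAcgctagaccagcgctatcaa
Fkbp4: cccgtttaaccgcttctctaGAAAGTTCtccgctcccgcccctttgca

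The Hspa1a and Hspa1b stretches lie on the minus strand at chr17:34972193-34972320 and chr17:34959275-34959402. They run from 164 to 37 bases before the start and are identical in all 128 bases, and the 250 bases before the starts differ at 3. The Hspe1 stretch (chr1:55088039-55088096, plus strand) lies inside a promoter window of Hspd1 as well, since these genes are transcribed away from each other. The others are at chr9:54699449-54699534 (Dnaja4, plus), chr5:135887782-135887849 (Hspb1, plus), chr9:18292243-18292291 (Chordc1, plus), chr5:29735832-29735884 (Dnajb6, plus) and chr6:128438780-128438827 (Fkbp4, minus).

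A match to GAANNTTC or TTCNNGAA stood in a window of 13 of 18 inducible members (72.2%) and 2 of 11 constitutive members (18.2%), against 17% of the 27025 genes with a window. The 3-unit forms, GAANNTTC followed by NNGAA and TTCNNGAA followed by NNTTC, which contain the shorter ones, stood in 4 inducible members (Hsph1, Hspd1, Hspe1, Chordc1) and 1 constitutive member (Dnajb6), against 0.662% of all genes. TGANTCA, the AP-1 type of site, stood in 1 of the 29 members, Bag3, against 8.97% of all genes. Among the genes named next, the number of exact matches did not follow the order of the fold changes. Hspa1a held 1 match of 2 units and had the largest fold change of the members, Chordc1 held 5 matches, 4 of them overlapping in the stretch above, and was 3.11-fold higher in the libraries labelled Cre+, and Fkbp4 held 1 match and was lower there. Dnajb1, which was 38.4-fold higher, held none in its windows, which says only that these letters are absent there. For all members, imperfect units and sites outside the windows were not searched.

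The 37 genes together took 6.07%, 6.02% and 6.43% of all counts in the libraries labelled Cre+, against 0.504%, 0.501% and 0.506% in those labelled Cre-, a 12.3-fold difference in share. Inducible members made up 4.41% ± 0.113 and 0.166% ± 0.00201 of counts (26.5-fold), and constitutive members 1.77% ± 0.110 and 0.337% ± 0.00425 (5.23-fold; SD, n = 3 each). Reads of inducible members therefore outnumbered those of constitutive members 2.50 to 1 in the libraries labelled Cre+, where the ratio was 0.493 to 1 in those labelled Cre-. These shares rest largely on a few abundant genes. Hspa1a alone took 2.16% and 0.00833% of counts in the libraries labelled Cre+ and Cre-, and the 2 HSP90 genes 1.91% and 0.176%. Among constitutive members, Hspa8 and Hsp90ab1 averaged 9610 and 9304 CPM in the libraries labelled Cre+, against 739 and 1207 CPM in those labelled Cre-. The next, Dnajb6, averaged 202 CPM in the libraries labelled Cre+, so the 5.23-fold rests largely on Hspa8 and Hsp90ab1. Under TMM, 10 of the 17 constitutive members differed by 2-fold or less. All 37 passed the filter on low counts. In the edgeR quasi-likelihood test over 15261 genes, 29 members passed as higher and 5 as lower in the libraries labelled Cre+, where 30.2% of all genes passed as higher and 34.1% as lower, and 64.4% in either direction, and 3 members did not pass. CPM did not overlap between the groups for 35 members, against 71.2% of all genes. The contrast chose the members, so nothing is read from these counts.

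**Figure D1:**
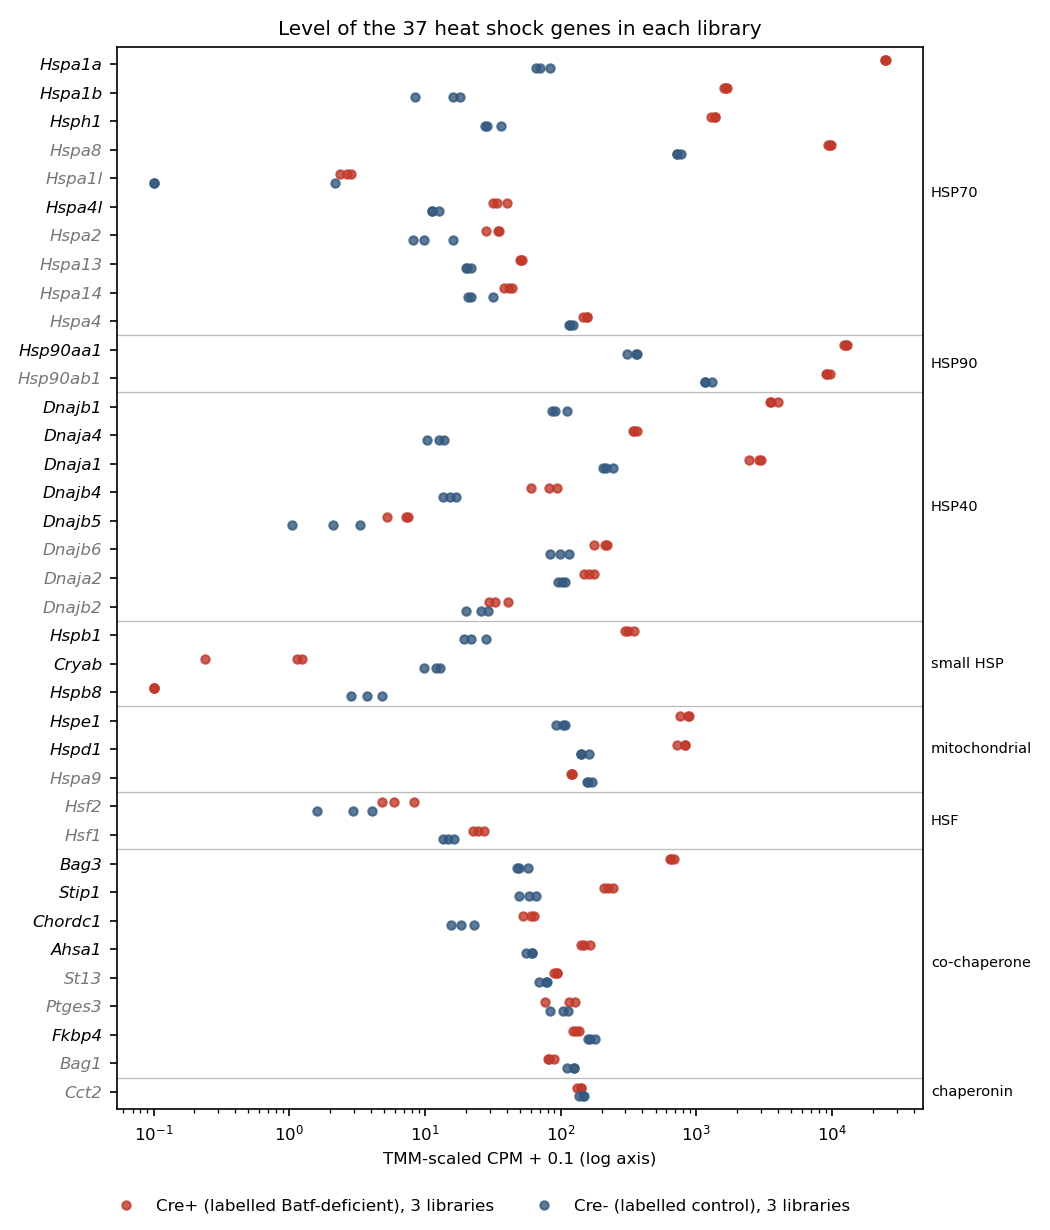
TMM-scaled CPM (with 0.1 added, log axis) of each of the 37 genes in the 3 libraries labelled Cre+ (red) and the 3 labelled Cre- (blue), by class, with inducible genes in black and constitutive genes in grey type. Hspa1a lies between 24545 and 25117 CPM in the libraries labelled Cre+ and between 65.2 and 83.7 CPM in the others, while the points of Ptges3 and Cct2 overlap between the groups.

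Scaling decided the sign of many members, so it is given here once. The median log2 fold change of all genes was 0.02 with TMM factors, -0.36 with library totals and -2.14 with the 20 lymphocyte genes. The 20 genes, which include the ILC3 markers Il7r, Thy1, Gata3, Tcf7, Id2 and Rora, did not differ alike. Their log2 fold changes under TMM ran from 0.475 to 3.63. After scaling on them, 9 of the 20 passed as higher and 7 as lower, so the sign of small fold changes there is uncertain. Under TMM, library totals, upper quartile factors, DESeq2 size factors and the lymphocyte genes alike, 14 members were higher and 5 lower in the libraries labelled Cre+, and the sign of the other 18 depended on the scaling. The 14 were Hspa1a, Hspa1b, Hspa8, Hsph1, both HSP90 genes, Dnaja1, Dnaja4, Dnajb1, Dnajb4, Hspb1, Hspd1, Hspe1 and Bag3, of which Dnajb4 did not pass the test with the lymphocyte genes (log2 fold change 0.22). The 5 were Hspb8, Cryab, Hspa9, Fkbp4 and Bag1. Log2 fold changes of the 14 were smaller with the lymphocyte genes, from 0.22 (Dnajb4) and 0.26 (Hspd1) to 6.25 (Hspa1a). Those of Hspa9, Fkbp4 and Bag1 were more negative there, at -2.57, -2.52 and -2.69. Folds given by class below are under TMM unless stated. With the lymphocyte genes, 13 members passed as higher and 19 as lower, against 2.67% and 83.2% of all genes. With library totals, 23 members passed as higher and 6 as lower, against 20% and 42.5% of all genes. In median log2 fold change, inducible members stood above constitutive members by 2.01 under TMM (2.74 against 0.73). With the lymphocyte genes the gap was 2.01 as well (0.58 against -1.42). A change of scaling moves all genes by nearly the same amount, so the gap could hardly change, and nothing is read from its equality. A stricter count filter did move it, as given at the end.

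**Figure D2:**
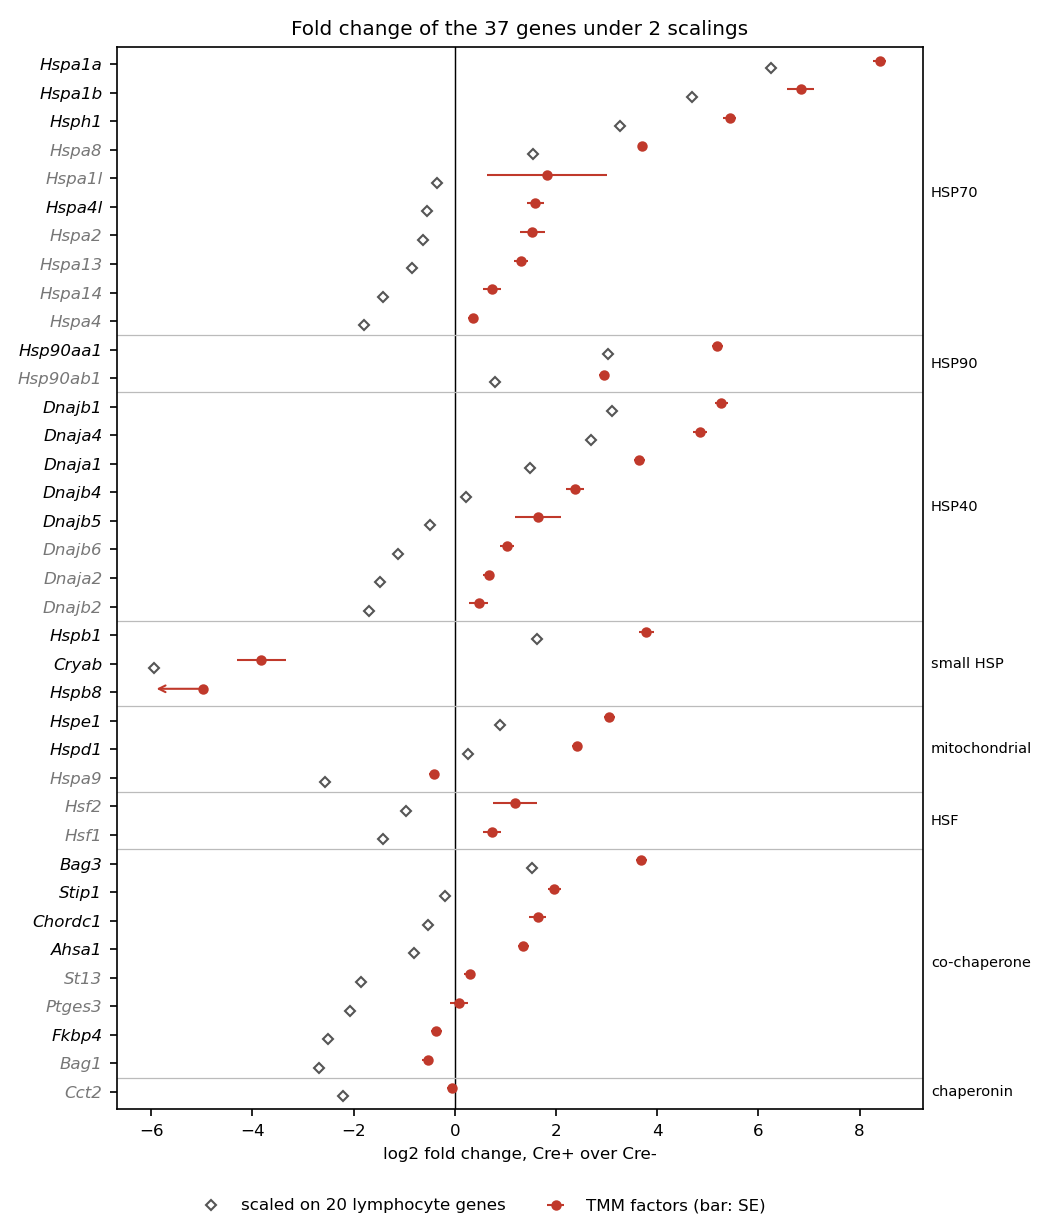
Log2 fold change of each member, libraries labelled Cre+ over those labelled Cre-, with TMM factors (red, bars are SE) and scaled on 20 lymphocyte genes (open diamonds). Hspb8, which had no count in the libraries labelled Cre+, is drawn at its bound of -4.98 with an arrow. The diamonds lie to the left of the red points, and 14 members lie right of 0 on both scales.

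HSP70 proteins were led by the inducible pair Hspa1a and Hspa1b (chromosome 17, 34969190 to 34972156 and 34956436 to 34959238, mm10), neighbours that encode nearly the same protein. Hspa1a had 25117, 24546 and 24545 CPM in the libraries labelled Cre+, against 70.9, 65.2 and 83.7 CPM in those labelled Cre-. Its mean was 338-fold higher in the libraries labelled Cre+ (log2 fold change 8.40, SE 0.13), and no library of one group came near the other. Ranked by mean CPM over the whole table, Hspa1a was number 3 in the libraries labelled Cre+ and number 1971 in those labelled Cre-. Hspa1b had 1647, 1587 and 1693 CPM in the libraries labelled Cre+, against 8.39, 16 and 18 CPM in those labelled Cre- (log2 fold change 6.84, SE 0.27). Their coding sequences in GENCODE M21 differ by 8 substitutions over 1926 aligned bases and share a run of 638 identical bases, so that the division of reads between the pair is uncertain. The ratio of Hspa1a to Hspa1b counts was 15.3, 15.5 and 14.5 in the libraries labelled Cre+ and 8.45, 4.08 and 4.66 in those labelled Cre-.

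Hspa8, the constitutive HSC70 (chromosome 9, 40800984 to 40810087), was also higher. It had 9589.7, 9396 and 9843 CPM in the libraries labelled Cre+, against 724, 718 and 774 CPM in those labelled Cre- (log2 fold change 3.70, SE 0.08). The inducible pair differed more than its constitutive relative, which can be read within each library without any scaling: Hspa1a and Hspa1b had 2.79, 2.78 and 2.67 reads for each read of Hspa8 in the libraries labelled Cre+, against 0.109, 0.113 and 0.131 in those labelled Cre-, a 23.3-fold difference. This and the other ratios within a library are free of scaling but not of the mix of cells. The part of RNA of other tissue in them was not tested. Per kilobase of the longest coding transcript, Hspa1a reached 8337 and Hspa8 4014 TMM-scaled CPM per kb in the libraries labelled Cre+, while in those labelled Cre- Hspa8 had 309 and Hspa1a 24.7 CPM per kb. The order of the pair was thus opposite in the 2 groups.

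Hsph1 encodes HSP110, an inducible HSP70 relative that acts as a nucleotide exchange factor and disaggregase partner. It had 1361, 1375 and 1280.3 CPM in the libraries labelled Cre+, against 28.8, 36.5 and 27.8 CPM in those labelled Cre- (43.2-fold, log2 fold change 5.43, SE 0.13). Its relatives of the same branch differed far less and turned negative with the lymphocyte genes: Hspa4l, which is heat-inducible, was 3.03-fold higher, and Hspa4, which is constitutive, 1.29-fold. Hspa2, the testis-enriched HSP70, averaged 32.6 ± 3.87 CPM in the libraries labelled Cre+ and 11.2 ± 4.17 CPM in those labelled Cre-. Hspa13, a microsomal HSP70 relative, averaged 51.0 ± 0.643 and 20.6 ± 1.07 CPM, and Hspa14, a ribosome-associated one, 41.0 ± 2.71 and 24.6 ± 6.14 CPM (SD, n = 3 each). All 3 turned negative with the lymphocyte genes. Hspa1l, the testis gene beside Hspa1a, had 20, 16 and 32 counts in the libraries labelled Cre+ and 0, 36 and 0 counts in those labelled Cre-, and shares a run of 233 identical coding bases with Hspa1a. It did not pass the test, and its Cre- mean rests on 1 library.

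The cytosolic HSP90 genes are an inducible one, Hsp90aa1 (chromosome 12, 110690605 to 110702728), and a constitutive one, Hsp90ab1 (chromosome 17, 45567775 to 45573271). Hsp90aa1 had 12567, 12882 and 12249 CPM in the libraries labelled Cre+, against 308, 357 and 367 CPM in those labelled Cre- (36.5-fold, log2 fold change 5.19, SE 0.10). Hsp90ab1 had 9177, 9025 and 9709 CPM in the libraries labelled Cre+, against 1166, 1148 and 1306 CPM in those labelled Cre- (7.71-fold, log2 fold change 2.95, SE 0.09). Both were higher in each library labelled Cre+ than in any labelled Cre-. The log2 fold changes of Hsp90aa1 and Hsp90ab1 were 3.04 and 0.79 with the lymphocyte genes. Reads of Hsp90aa1 for each read of Hsp90ab1 numbered 1.37, 1.43 and 1.26 in the libraries labelled Cre+ and 0.264, 0.311 and 0.281 in those labelled Cre-, a 4.74-fold difference. Per kilobase the levels of the 2 genes in the libraries labelled Cre+ were 3829.9 and 3692 CPM per kb, which is closer than the 105 and 479 CPM per kb of the libraries labelled Cre-.

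**Figure D3:**
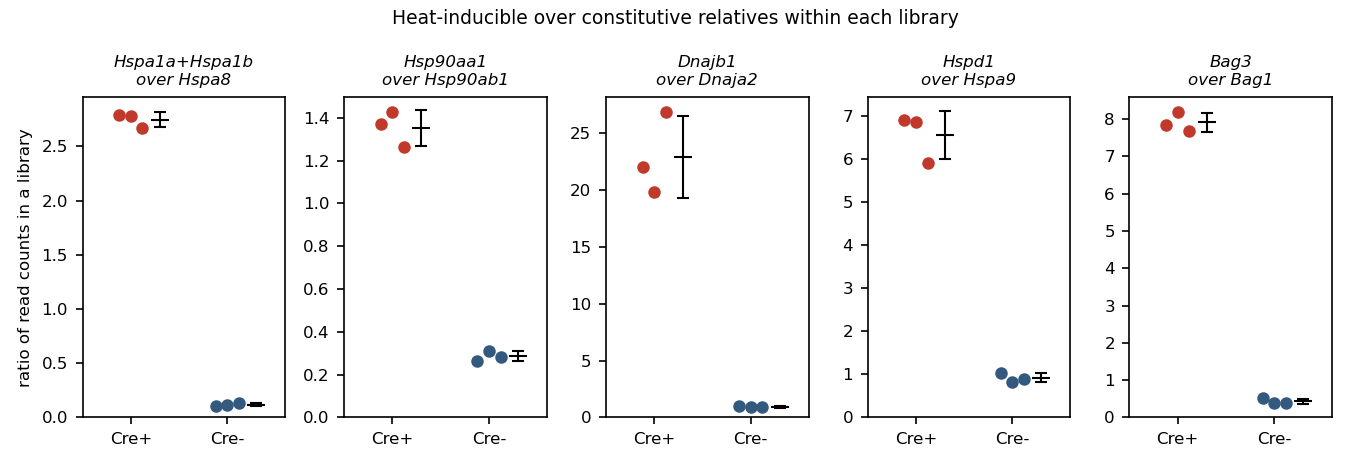
Read counts of a heat-inducible gene divided by those of a constitutive relative in the same library, for the 3 libraries labelled Cre+ (red) and the 3 labelled Cre- (blue), with mean and SD in black. In each panel the 3 red points lie above the 3 blue points, by 23.3-fold for Hspa1a plus Hspa1b over Hspa8 and by 4.74-fold for Hsp90aa1 over Hsp90ab1. RNA of other tissue differed between the groups, and its part in these ratios was not tested.

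HSP40 proteins carry the J domain that starts the ATPase of HSP70. Dnajb1, the main inducible partner of cytosolic HSP70, had 3551, 3496 and 3970.2 CPM in the libraries labelled Cre+, against 110.5, 85.9 and 90.7 CPM in those labelled Cre- (log2 fold change 5.26, SE 0.13). Dnaja4 had 366, 346 and 339 CPM in the libraries labelled Cre+, against 10.2, 12.5 and 13.7 CPM in those labelled Cre- (28.9-fold). Dnaja1, an abundant J protein with a farnesylated end, averaged 2781 ± 304 CPM in the libraries labelled Cre+ and 222 ± 20.6 CPM in those labelled Cre- (12.5-fold; SD, n = 3 each). These 3 inducible genes were above every Cre- value in each library labelled Cre+. Dnajb4 averaged 78.9 ± 17.4 and 15.2 ± 1.67 CPM, and Dnajb5 was low in both groups, at 5.13 to 7.39 CPM and 0.943 to 3.22 CPM. The constitutive members differed by less and turned negative with the lymphocyte genes: Dnajb6, which keeps polyglutamine proteins soluble, was 2.04-fold, Dnaja2 1.59-fold and Dnajb2 1.37-fold higher in the libraries labelled Cre+ under TMM. Reads of Dnajb1 for each read of Dnaja2 numbered 22, 19.8 and 26.9 in the libraries labelled Cre+, against 1.03, 0.901 and 0.892 in those labelled Cre-.

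Small heat shock proteins hold unfolded proteins without ATP, and here the 3 genes went in opposite directions. Hspb1, which encodes HSP25, had 296, 314 and 346 CPM in the libraries labelled Cre+, against 19.2, 21.9 and 28.1 CPM in those labelled Cre- (13.8-fold, log2 fold change 3.78, SE 0.15). Cryab, the αB-crystallin of lens and muscle, had 0.139, 1.14 and 1.05 CPM in the libraries labelled Cre+ (1, 8 and 13 counts), against 11.9, 12.7 and 9.81 CPM in those labelled Cre-, a 14.8-fold lower mean. Hspb8, a BAG3 partner of muscle and other tissues, had no count in any library labelled Cre+ and 50, 48 and 70 counts in those labelled Cre-, which makes it at least 31.5-fold lower against a floor of 3 counts over the group. Stromal markers were lower beside them: all 9 of 9 passed as lower, against 34.1% of all genes, with 1 at 0 in the libraries labelled Cre+. Their summed share was 0.00344% to 0.00379% in the libraries labelled Cre+ and 0.108% to 0.114% in those labelled Cre-. The part of stromal RNA in the values of Cryab and Hspb8 was not tested.

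The mitochondrial chaperones differed in direction. Hspd1 (HSP60) and Hspe1 (HSP10) form the folding chamber of the matrix and share the promoter shown above. Hspd1 had 824, 825 and 717 CPM in the libraries labelled Cre+, against 161, 141 and 141 CPM in those labelled Cre- (5.34-fold), and Hspe1 had 874, 884 and 759.6 CPM, against 91.7, 107 and 104 CPM (8.32-fold). The log2 fold changes of Hspd1 and Hspe1 were 2.42 and 3.06 under TMM, but 0.26 and 0.90 with the lymphocyte genes. Reads of Hspe1 for each read of Hspd1 numbered 1.06, 1.07 and 1.06 in the libraries labelled Cre+ and 0.570, 0.754 and 0.738 in those labelled Cre-. Hspa9 (mortalin), the constitutive matrix HSP70, had 119, 121 and 122 CPM in the libraries labelled Cre+, against 155, 170.5 and 158 CPM in those labelled Cre-, so that it was lower in every library labelled Cre+ (log2 fold change -0.42, SE 0.10). Reads of Hspd1 for each read of Hspa9 numbered 6.90, 6.84 and 5.89 in the libraries labelled Cre+ and 1.04, 0.829 and 0.894 in those labelled Cre-.

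The heat shock factors themselves were low in both groups. Hsf1, the main activator of the response, had 27.3, 22.5 and 24.5 CPM in the libraries labelled Cre+, against 13.6, 14.8 and 16.3 CPM in those labelled Cre- (1.66-fold). Hsf2, a partner and modulator of HSF1, had 5.82, 8.24 and 4.75 CPM in the libraries labelled Cre+, against 3.96, 2.86 and 1.51 CPM in those labelled Cre- (2.26-fold, SE 0.44 on a log2 fold change of 1.18). Neither pair of groups overlapped, and both genes turned negative with the lymphocyte genes, at -1.42 and -0.97. HSF1 is regulated mainly as a protein, which RNA counts do not measure.

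Among the co-chaperones, Bag3, an inducible nucleotide exchange factor that steers clients to autophagy, differed most. It had 643, 655 and 683 CPM in the libraries labelled Cre+, against 57.6, 49.1 and 47.8 CPM in those labelled Cre- (12.8-fold, log2 fold change 3.68, SE 0.11). Its constitutive relative Bag1 had 81.9, 80.0 and 88.8 CPM in the libraries labelled Cre+, against 112, 126 and 126 CPM in those labelled Cre-, and was lower without overlap. Reads of Bag3 for each read of Bag1 numbered 7.85, 8.19 and 7.69 in the libraries labelled Cre+ and 0.516, 0.389 and 0.380 in those labelled Cre-. The HSP90 co-chaperones were spread more widely. Stip1 (HOP), which bridges HSP70 and HSP90, was 3.92-fold higher, Chordc1, a regulator of HSP90 that senses ADP, 3.11-fold, and Ahsa1, which activates the HSP90 ATPase, 2.55-fold, and all 3 turned negative with the lymphocyte genes. Fkbp4 (FKBP52), an immunophilin of steroid receptor complexes, averaged 129 ± 6.96 CPM in the libraries labelled Cre+ and 166 ± 10.5 CPM in those labelled Cre-. Under TMM this was the reverse of the other inducible co-chaperones, of which Bag3 alone stayed positive with the lymphocyte genes. St13 (HIP), which steadies HSP70 in its ADP-bound state, averaged 92.5 ± 2.99 and 75.4 ± 5.35 CPM (SD, n = 3 each), with a log2 fold change of 0.30 that turned to -0.09 with library totals and to -1.86 with the lymphocyte genes. Ptges3 (p23), which holds HSP90 on its clients, and Cct2, a subunit of the TRiC chaperonin, overlapped between the groups and did not pass, with log2 fold changes of 0.09 (SE 0.18) and -0.06 (SE 0.10).

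Replicates were close for most members. The coefficient of variation of CPM was under 10% for 26 members in the libraries labelled Cre+ and for 17 in those labelled Cre-, with medians of 7.82% and 11.0%. Replicates 1 and 2 labelled Cre+ were more alike than any other pair of one group, with a chi-square averaging 2.36 over the genes compared (1 would be sampling noise alone), where the other pairs labelled Cre+ had 16.5 and 19.8 and the pairs labelled Cre- 14.8 to 24.2. Replicate 3 labelled Cre+ stood within a factor of 0.8 in either direction of the mean of replicates 1 and 2 for 31 members. It was lower for Ptges3 (0.626 times), Hsf2 (0.675) and Dnajb4 (0.679), and higher for Dnajb2 (1.31) and Cryab (1.64), all of which except Ptges3 are below 100 CPM. With replicates 1 and 2 summed into 1 library, 26 members passed as higher and 5 as lower. In number, fewer of all genes passed as higher there as well and slightly more as lower, so no stability is read from these member counts. Among the members, Dnajb2, Hsf2 and St13 no longer passed. These 3 also failed to pass without any 1 of the libraries labelled Cre+ and without replicate 3 labelled Cre-. Hspa4 did not pass without replicate 1 or without replicate 2 labelled Cre+. Without replicate 2 labelled Cre-, which holds all Hspa1l counts of its group, Hspa1l passed as higher, and Dnajb2 and Hsf2 did not pass.

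Other genes of protein folding were measured in 10 lists without members, 88 genes of which were tested. The lists were chosen with earlier results of these data known. Their counts and medians are a description, and nothing about the members is read from them. Of 10 heat-inducible genes outside the member list, 9 rose and 1 fell (median log2 fold change 2.28, against 0.02 over all genes), where 30.2% of all genes passed as higher and 34.1% as lower. With the lymphocyte genes 4 of the 10 passed as higher and 4 as lower, and the median was 0.12. Ubb, which encodes a ubiquitin precursor, rose by 3.32 on the log2 scale (SE 0.10, edgeR adjusted p = 7.12e-11) and was also higher with the lymphocyte genes, at 1.16. The gene that fell was Serpinh1, the collagen chaperone HSP47 of the endoplasmic reticulum, at 0, 1.85 and 0.966 CPM in the libraries labelled Cre+ and 26.1, 28.0 and 30.7 CPM in those labelled Cre- (log2 fold change -4.90, edgeR adjusted p = 7.42e-06), beside the lower stromal markers given above.

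The lists of other cytosolic and mitochondrial chaperones had medians from -0.52 to 0.44. Each count below stands beside the 30.2% of all genes that passed as higher and the 34.1% that passed as lower under TMM. Of 7 other TRiC subunits 5 rose and none fell (median 0.39), with Cct6a at 0.71 and Cct3 at 0.49 as the largest. Of 6 prefoldin subunits 2 rose, Pfdn5 (1.14) and Vbp1 (0.67), and 2 fell, among them Pfdn1 (-1.21), near the shares of all genes. Of 11 other HSP90 co-chaperones 6 rose and 1 fell (median 0.44). Fkbp5, an immunophilin induced by glucocorticoids, rose most, with 65.1, 62.0 and 80.2 CPM in the libraries labelled Cre+, against 9.43, 11.8 and 16.8 CPM in those labelled Cre- (log2 fold change 2.43, SE 0.20, edgeR adjusted p = 6.27e-07), and Cdc37, which loads kinases onto HSP90, followed at 1.25. Of 10 other HSP40 genes 4 rose and 4 fell (median 0.04), near the 30.2% and 34.1% of all genes, with Dnajc21 at -1.41 and Dnaja3, the mitochondrial J protein, at -1.30. Of 5 other HSP70 exchange factors 2 rose and 1, Bag6 (-0.77), fell. Of 8 mitochondrial protein quality control genes none rose and 4 fell (median -0.52), with the HSP70 exchange factor Grpel2 at -1.31 and the protease subunit Afg3l2 at -0.94. With the lymphocyte genes, none of the genes of these lists passed as higher and all but 1 passed as lower, under a scaling where 83.2% of all genes passed as lower and 2.67% as higher.

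Chaperones of the endoplasmic reticulum, which answer to the unfolded protein response rather than to HSF1, were mixed. Of 15 genes 7 rose and 3 fell, against 30.2% and 34.1% of all genes (median 0.22, which turned to -0.16 with library totals and to -1.94 with the lymphocyte genes). With the lymphocyte genes all 15 passed as lower, where 83.2% of all genes did. Hspa5 (BiP) averaged 1498 ± 31.1 CPM in the libraries labelled Cre+ and 653 ± 18.9 CPM in those labelled Cre- (log2 fold change 1.20, SE 0.08, edgeR adjusted p = 8.62e-08, SD, n = 3 each). Among the HSP70 members it would stand between Hspa14 (0.73) and Hspa13 (1.30) in log2 fold change. P4hb, the disulfide isomerase that is abundant in secretory cells, averaged 343 ± 12.6 and 1141 ± 26.9 CPM and fell by 1.74 on the log2 scale, beside the lower share of acinar RNA given above. The HSF list held 3 genes, of which Hsbp1, a binding protein of HSF1, and Hsf4 were in the table, and both fell, at -0.68 and -1.85, the second on 8 counts over the libraries labelled Cre+.

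Immediate early genes, which like inducible HSP70 are known to respond to tissue digestion, were measured beside the members. Of 14 genes 10 rose and none fell (median 1.19), against 30.2% and 34.1% of all genes. With the lymphocyte genes 3 passed as higher and 10 as lower, against 2.67% and 83.2% of all genes. Jun averaged 2931 ± 50.2 CPM in the libraries labelled Cre+ and 271 ± 30.5 CPM in those labelled Cre- (log2 fold change 3.43, SE 0.10, edgeR adjusted p = 7.63e-11; SD, n = 3 each), and Nr4a1 and Dusp1 followed at 3.14 and 2.38. Egr1, Egr2, Zfp36 and Jund did not pass, at -0.12, -0.49, 0.01 and 0.20. The labels give no digestion time, date or handling batch, so handling and genotype cannot be told apart for these genes or for the heat shock members.

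**Figure D4:**
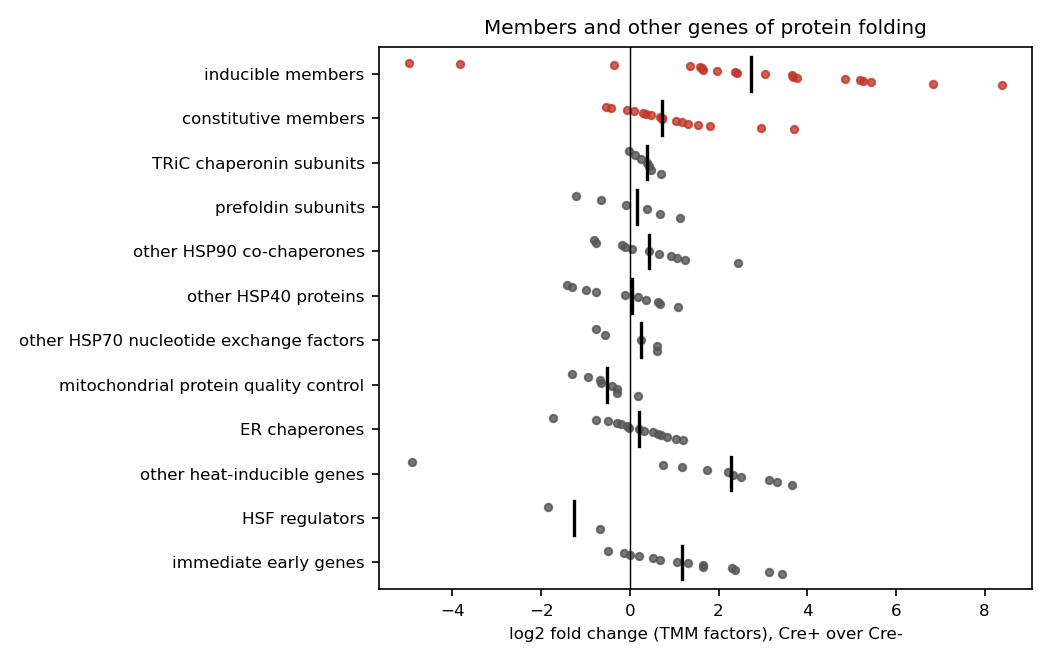
Log2 fold change with TMM factors, libraries labelled Cre+ over those labelled Cre-, of the inducible and constitutive members (red) and of the tested genes of 10 further lists (grey), with the median of each as a black bar. The medians of the inducible members (2.74) and of the other heat-inducible genes (2.28) lie furthest to the right, and those of the other chaperone lists lie between -0.52 and 0.44 apart from the HSF regulators. Members and lists were chosen with earlier results known, so the medians are a description.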

How the data were processed

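RNA of sorted ILC3s was measured in 6 Smart-seq2 libraries, 3 per genotype, per the labels' protocols, from 2 ng of RNA each. The authors deposited raw counts per gene symbol, whole numbers in 1 table. Per the submitters' processing notes, the genome build was mm10. How reads were aligned and counted, against which annotation and with which strand setting, is not stated in the labels, so reads of near-identical genes may be shared or lost. Smart-seq2 has no molecular identifiers, so floors cover counting error only. At these depths 3 counts corresponded to 0.156 to 0.426 CPM.

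The tests used edgeR 4.0.16 under R 4.3.3: filterByExpr with a minimum count of 10 (15261 genes kept), TMM, glmQLFit (robust) and glmQLFTest, two-sided, with Benjamini-Hochberg adjustment over all genes and a threshold of 0.05. Alternatives, DESeq2 1.42.0 among them, are given at the end. The scripts were tested on simulated counts. The series design calls the samples biological replicates, and each library was counted as 1 sample. Levels per kilobase use the longest coding transcript of GENCODE M21, and coding sequences are the longest open reading frames of its transcripts. The members, lists, lymphocyte genes and classes were chosen with earlier results of these data known. All members are accounted for; of each list, up to 3 genes past the threshold with the largest absolute log2 fold change could be named with values, and Egr1, Egr2, Zfp36 and Jund were named after their values were seen.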

Additional observations from a re-analysis of the deposited data

How the results depend on the processing

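Depth was not limiting for most members: only Hspa1l, Hspb8, Dnajb5, Hsf2 and Cryab fell under 10 CPM in a group mean. With library totals, 3048 genes were higher, the inducible median was 2.35, the constitutive median 0.35, and the further lists held 27 higher and 34 lower genes (45 and 18 with TMM); Hspa4 turned to -0.017 and St13 to -0.087. Scaled on the lymphocyte genes, 408 genes were higher and 12702 lower, 13 members higher and 19 lower, and 7 and 77 of the list genes; the inducible median was 0.58 and the constitutive median turned to -1.42. Members whose sign turned there were Hspa4l (-0.56), Hspa4 (-1.79), Hspa2 (-0.63), Hspa13 (-0.85), Hspa14 (-1.41), Dnajb5 (-0.50), Dnaja2 (-1.48), Dnajb2 (-1.69), Dnajb6 (-1.13), Hsf1 (-1.42), Hsf2 (-0.97), Stip1 (-0.19), Chordc1 (-0.52), Ahsa1 (-0.80), St13 (-1.86) and, without a call under TMM, Hspa1l (-0.36) and Ptges3 (-2.07). Other named genes that turned were Batf (-0.87), Cct3 (-1.67), Cct6a (-1.45), Cct7 (-1.72), Pfdn5 (-1.02), Vbp1 (-1.48), Cdc37 (-0.90), Tomm34 (-1.08), Dnajc9 (-1.07), Bag5 (-1.53), Hspbp1 (-1.54), Hspa5 (-0.96), Pdia3 (-1.12) and, without a call under TMM, Jund (-1.95) and Zfp36 (-2.14). With a minimum count of 50, which drops low members, the inducible members median was 3.36 and the inducible minus constitutive median 2.65 (2.01 with the minimum of 10). Leaving out 1 library at a time gave 25 to 29 higher and 5 lower members. The replicate block, although same-numbered libraries deviated together only at correlations of 0.00449, 0.0209 and 0.0304, gave 28 higher and 5 lower members; not every library correlated best with its own number. DESeq2 gave 27 higher and 5 lower, and no count filter 27 and 5. The number of all genes that passed as higher moved under these settings as well. It fell with the replicate block, with DESeq2, with no count filter and without any 1 of the libraries labelled Cre+. It rose without any 1 of those labelled Cre-. No stability of the members is therefore read from these counts. The cause of these shifts was not tested.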
